A study of Mus musculus with 14 samples.

Results

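The uncoupling protein family was followed in 4 stably modified lines of MIN6, a mouse insulin-secreting beta-cell line. Its members here are Ucp1, Ucp3 and the brain relatives Slc25a14 and Slc25a27, chosen by name: every probe whose single platform gene symbol, updated through its Entrez identifier, was one of these 4 genes. Each gene had exactly 1 probe, so the family is 4 of 15099 singly named genes and 4 of 23232 probes on the array. All 4 were tested and had values on all 14 arrays. None belonged to the 329 probes of the overexpression arrays, or the 173 of the knockdown arrays, that repeat a single pattern of ratios (within 1 percentage point on at least 5 of the arrays of a kind). Ucp2 had no singly named probe and was not analysed here.

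Uncoupling proteins belong to the SLC25 family of carriers in the inner mitochondrial membrane. Ucp1, the protein of brown fat, lets protons return to the matrix without driving ATP synthase, so that energy is released as heat. It is activated by free fatty acids and inhibited by purine nucleotides. In beta cells the ATP made from glucose closes potassium channels and triggers insulin release, and Ucp2 is the family member usually discussed there. Ucp3 is best known from skeletal muscle, heart and brown fat, and Slc25a14 (also called UCP5 or BMCP1) and Slc25a27 (also called UCP4) from brain.

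Each two-colour array set RNA of a line with altered Sirt1, an NAD-dependent deacetylase, against its control RNA. Sir2OE2 (4 arrays) and Sir2OE1 (3 arrays) were made with the pBabe-Sirt1 retrovirus to overexpress mouse Sirt1, and their control was pooled RNA of Neo1 and Neo2, which carried pBabe-neo. Sir2KD2 (4 arrays) and Sir2KD1 (3 arrays) were made with mU6pro vectors for a pair of small interfering RNAs to Sirt1, with a neomycin-resistance plasmid, and their control was a single empty-vector line, mU6pro. The parental cells were at passage 24, all lines were kept in 5 mM glucose for 4 days before RNA was taken, and selection used 280 micrograms of G418 per ml for overexpression and 400 for knockdown. Nothing in the labels says that slides of one line came from different cultures; p-values therefore reflect array-to-array spread only, possibly technical. Each name is 1 selected line, and the control lines' own spread does not enter. Ratios carry no level, so neither the abundance of a member nor that of the beta-cell markers in these cells could be checked, and levels were not ranked between genes. Fewer cells carrying a transcript and less RNA per cell cannot be told apart.

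The line was in channel 2 on some arrays and in channel 1 on others. Deposited log2 ratios were taken as channel 2 over channel 1 and turned where the line was in channel 1, so that all arrays of a line run the same way. No source names the channel on top, or says whether both kinds of line hold the same one, so the turn is an assumption. Values are therefore reported as the plus or minus side of the turned log2 ratio, and plus need not mean more RNA in the modified line. The labelled change of Sirt1 was not seen at its probe, which therefore did not settle the direction: it lay at -0.33 in Sir2OE2, 0.08 in Sir2OE1, 0.13 in Sir2KD2 and -0.10 in Sir2KD1 and passed in no line (limma adjusted p of 0.131 or more). The fitted values of the overexpressing lines lay on opposite sides of 0, and so did those of the knockdown lines. Only the Sir2OE2 95% interval (-0.55 to -0.11) left out 0, so the side of Sirt1 in the other lines is not settled. Overexpression and knockdown below name the lines by their labels. A probe was called at a Benjamini-Hochberg adjusted p under 0.05 in limma over all 23230 tested probes.

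Regulatory sequence of the closest pair by name, Ucp1, which was called in 3 of the 4 lines, and Ucp3, which was called in 0 by limma, is shown to let the genes be compared. RefSeq promoter windows (build GRCm38.p6) matched 3 of the 4 members, all but Slc25a27. Below are the 250 bases before the annotated start of each gene, 5′ to 3′ on the plus strand, Ucp1 at chr8:83290098-83290347 and Ucp3 at chr7:100472741-100472990. Capitals mark the nuclear receptor half-site AGGTCA, the element that PPAR and thyroid hormone receptors read in pairs.
Ucp1: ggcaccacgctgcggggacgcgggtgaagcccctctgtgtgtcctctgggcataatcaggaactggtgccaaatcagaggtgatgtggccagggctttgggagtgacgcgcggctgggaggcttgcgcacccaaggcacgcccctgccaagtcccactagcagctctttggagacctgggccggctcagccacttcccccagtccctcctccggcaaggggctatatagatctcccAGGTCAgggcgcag
Ucp3: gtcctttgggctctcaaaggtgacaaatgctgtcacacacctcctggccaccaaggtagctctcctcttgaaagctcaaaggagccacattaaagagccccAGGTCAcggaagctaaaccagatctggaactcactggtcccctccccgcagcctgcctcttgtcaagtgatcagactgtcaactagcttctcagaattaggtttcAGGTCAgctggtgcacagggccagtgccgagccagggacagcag

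The half-site, searched as AGGTCA and its reverse complement TGACCT, occurred 1 time in the Ucp1 window, beginning 14 bases before the start. It occurred 2 times in the Ucp3 window, beginning 149 and 44 bases before the start, and in 0 of 3 Slc25a14 windows. Of all 32851 promoter windows of this length, 14% held it. The core of the cyclic AMP response element, TGACG or CGTCA, was found 1 time in the Ucp1 window, 0 times in that of Ucp3 and in 17.8% of all windows. The Ucp1 and Ucp3 windows lacked CCAAT or ATTGG (33.8% of all windows), CACGTG (6.02%), GGGCGG or CCGCCC (32.7%) and TATAAA or TTTATA (12.4%). None of the strings searched contains another, and a match describes letters in a window only. In the gene table of the same assembly Ucp3 and Ucp2 lie next to each other on chromosome 7.

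Ucp1, the heat-producing member, lay on the minus side on all 7 overexpression arrays and on the plus side on all 7 knockdown arrays. Its turned log2 ratios in Sir2OE2 were -0.71, -0.27, -0.73 and -0.62 on slides 1 to 4. In Sir2OE1 they were -1.65, -1.09 and -1.28 on slides 1 to 3. The Sir2OE1 arrays were all further from 0 than any Sir2OE2 array. Sir2KD2 gave 0.54, 0.54, 0.77 and 0.64, and Sir2KD1 gave 0.67, 0.28 and 0.34. The knockdown lines overlapped each other, and no knockdown array overlapped an overexpression array. Over all probes, 0.555% showed such a separation of the 7 arrays of each kind onto opposite sides. With the knockdown ratios turned, these same probes, Ucp1 among them, would lie on a single side on all 14 arrays.

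**Figure D1:**
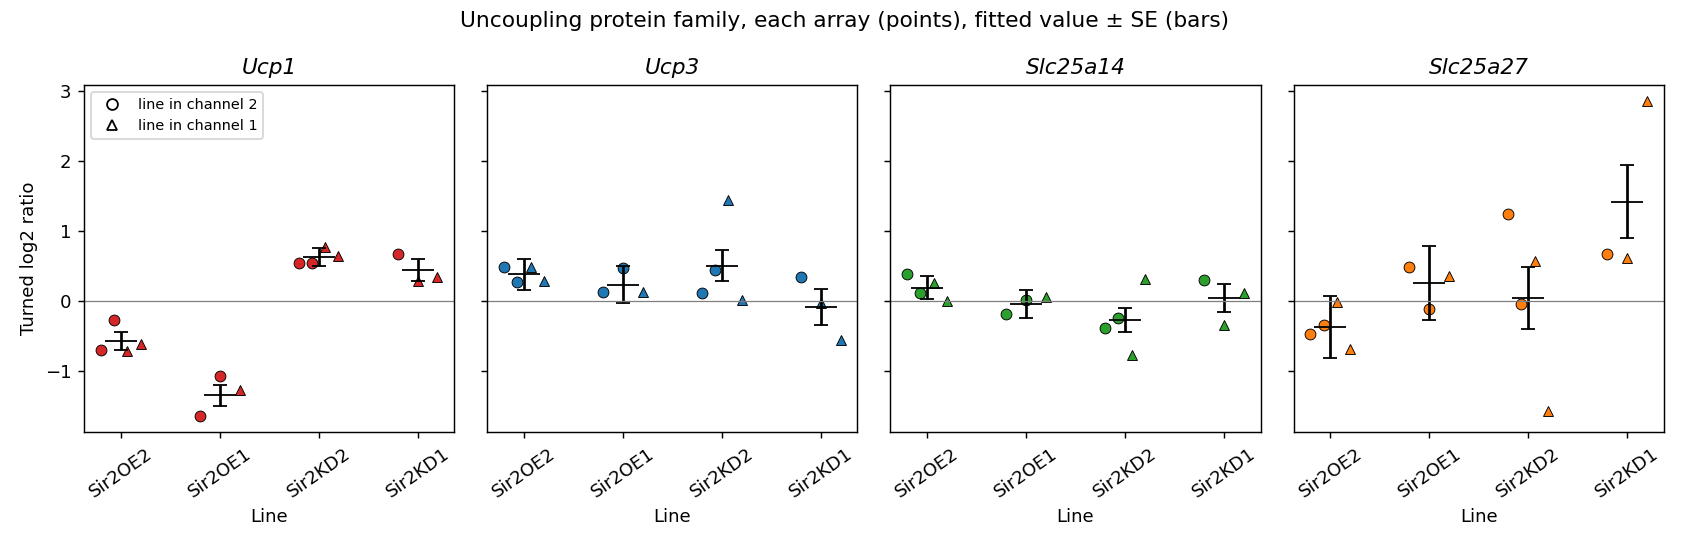
Turned log2 ratio (vertical axis) of each member on every array, by line (horizontal axis); circles are arrays with the line in channel 2, triangles those with it in channel 1, and bars the limma value ± SE. Ucp1 is below 0 on all 7 overexpression arrays and above 0 on all 7 knockdown arrays, while Slc25a27 spreads from -1.58 to 2.86 in the knockdown lines.

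In the fit, Ucp1 was at -0.58 ± 0.13 (SE, n = 4 arrays; limma adjusted p = 0.0371) in Sir2OE2 against the Neo pool. In Sir2OE1 it was at -1.35 ± 0.15 (SE, n = 3; limma adjusted p = 0.00229), a 2.55-fold difference, larger in size than that of 99.4% of probes. In Sir2KD2 it was at 0.62 ± 0.13 (SE, n = 4; limma adjusted p = 0.0457), a 1.54-fold difference from mU6pro. In Sir2KD1 the value was 0.44 ± 0.15 (SE, n = 3; limma adjusted p = 0.165), which did not pass, with a 95% interval from 0.10 to 0.77. Of the 4 members Ucp1 alone was called, on the minus side in Sir2OE2 (1.38% of all probes called on that side, 2.81% on either) and Sir2OE1 (0.594% and 1.06%) and on the plus side in Sir2KD2 (0.603% and 1.34%). Sir2KD1 had 0 members called by limma, against 3.59% of all probes, and Ucp1 and Slc25a27 had an unadjusted p under 0.05 there, as 16.8% of all probes did. The median member was at -0.10 in Sir2OE2, 0.09 in Sir2OE1, 0.27 in Sir2KD2 and 0.24 in Sir2KD1, where that of all probes was 0.00 in the first 3 of these lines and 0.02 in Sir2KD1. Calls on 1 side in both overexpressing lines were made for 0.551% of probes, and 0.0818% were in addition called on the other side in Sir2KD2, as Ucp1 was.

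The Sir2OE1 call was kept without any 1 of that line's arrays, at -1.47 to -1.18 with limma adjusted p of 0.0134 to 0.0455. The calls in Sir2OE2 and Sir2KD2 were each lost without any 1 of the line's own 4 arrays: limma adjusted p was 0.0573 to 0.229 for Sir2OE2 at -0.70 to -0.51, and 0.110 to 0.195 for Sir2KD2 at 0.55 to 0.67. In Sir2KD1 the value was 0.23 without slide 1 (limma adjusted p = 0.713).

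The turn itself matters for these values. Undoing the per-probe centring gave channel ratios, taken as the smallest whole-number percents that keep the deposited differences between arrays. For Ucp1 in Sir2OE2 these ratios were 0.48 and 0.65 with the line in channel 2 and 1.30 and 1.21 with it in channel 1. In Sir2OE1 they were 0.25 and 0.37 in channel 2 and 1.91 in channel 1. Sir2KD2 gave 1.29 and 1.29 in channel 2 against 0.52 and 0.57 in channel 1, and Sir2KD1 gave 1.41 against 0.73 and 0.70. Ucp1 thus changed sides of 1 with the channel in 4 of 4 lines. The same happened in 0 of 4 lines for Ucp3 and in 1 of 4 each for Slc25a14 and Slc25a27. Where a probe's uncentred log2 ratio was over 1 in size on every array of a line, the side followed the channel in 493 of 1668 probe and line pairs and was the same in both channels in 1019. The lines differed in this: the side followed the channel in 122 pairs against 111 in Sir2OE2, 87 against 370 in Sir2OE1, 69 against 359 in Sir2KD2 and 215 against 179 in Sir2KD1. Ucp1 did not reach that size on every array of any line, so these pairs do not include it. The share of all probes that changed sides of 1 in 4 of 4 lines was not counted. Read as line over control without any turn, Ucp1 was not called in Sir2OE2 (-0.26, limma adjusted p = 0.835), Sir2OE1 (-0.83, adjusted p = 0.278) or Sir2KD2 (-0.25, adjusted p = 0.901). This reading, here and below, held no channel term.

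**Figure D2:**
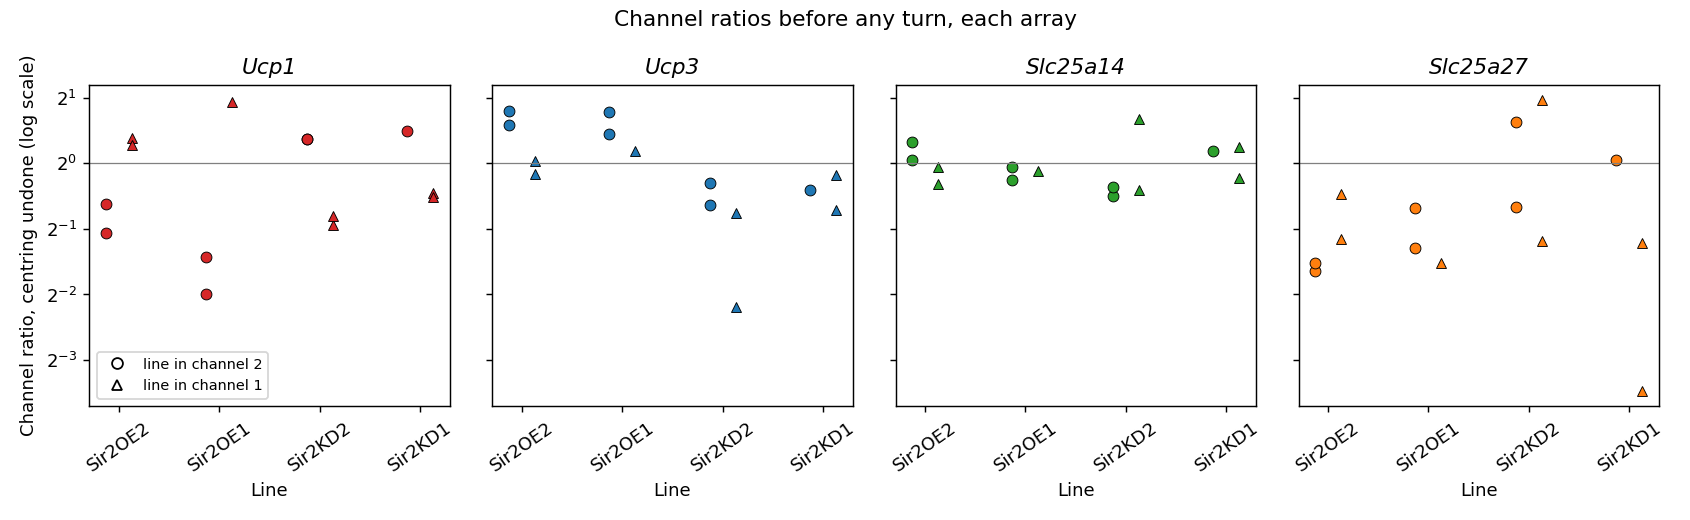
Channel ratio with the centring undone (vertical log axis, 1 at the grey line) of each member by line, with circles for arrays that hold the line in channel 2 and triangles for channel 1. Ucp1 circles and triangles stand on opposite sides of 1 in all 4 lines, and those of Ucp3 do not separate across 1 in any line.

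Ucp3, the muscle member, stayed on the plus side on all 7 overexpression arrays and spread widely in the knockdown lines. The shared side depends on the centring. With it undone, the channel ratio with the line in channel 1 was 1.14 on Sir2OE1 slide 3 and 1.02 on Sir2OE2 slide 4. Both would turn to the minus side. The share of all probes on 1 side on all 7 overexpression arrays was not counted. Sir2OE2 gave 0.49, 0.27, 0.48 and 0.28, and Sir2OE1 gave 0.13, 0.47 and 0.12, with overlap between these lines. Sir2KD2 gave 0.10, 0.44, 1.44 and 0.01, and Sir2KD1 gave 0.33, -0.04 and -0.56. Slide 3 stood highest in Sir2KD2, and the 2 knockdown lines overlapped. The fitted values were 0.38 ± 0.22 (SE, n = 4; limma adjusted p = 0.542) in Sir2OE2 and 0.23 ± 0.26 (SE, n = 3; adjusted p = 0.899) in Sir2OE1. They were 0.50 ± 0.22 (SE, n = 4; limma adjusted p = 0.365) in Sir2KD2 and -0.09 ± 0.26 (SE, n = 3; adjusted p = 0.919) in Sir2KD1. The 95% intervals reached 0.87 in Sir2OE2 and 0.99 in Sir2KD2, so differences of that size are not excluded. The Sir2KD2 interval began at 0.008, just above 0 (limma unadjusted p = 0.0468). Without slide 3 the Sir2KD2 value was 0.11. With no turn, no channel term and the centring undone, Ucp3 was instead called in Sir2KD2 at -0.97 (limma adjusted p = 0.0427). Its channel ratios there were 0.64 and 0.81 in channel 2 and 0.22 and 0.59 in channel 1. In that fit a channel offset of the probe and a difference of the line cannot be told apart.

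Slc25a14, a brain mitochondrial carrier, had fitted values of at most 0.28 in size. Sir2OE2 gave 0.39, 0.11, 0.26 and -0.01, and Sir2OE1 gave -0.19, 0.01 and 0.06. Sir2KD2 gave -0.39, -0.25, -0.77 and 0.31, and Sir2KD1 gave 0.29, -0.36 and 0.11. Arrays of every line lay on both sides of 0, and all lines overlapped. Fitted values were 0.19 ± 0.17 (SE, n = 4) in Sir2OE2, -0.04 ± 0.20 (SE, n = 3) in Sir2OE1, -0.28 ± 0.17 (SE, n = 4) in Sir2KD2 and 0.04 ± 0.20 (SE, n = 3) in Sir2KD1, with limma adjusted p of 0.536 or more. The widest 95% interval bounds were 0.56 on the plus side, in Sir2OE2, and -0.65 on the minus side, in Sir2KD2.

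Slc25a27, the other brain relative, had the largest single values of the family and also the largest spread. Sir2OE2 gave -0.48, -0.35, -0.01 and -0.69, all on the minus side, and Sir2OE1 gave 0.48, -0.12 and 0.35. With the centring undone, the Sir2OE2 channel ratios lay below 1 with the line in either channel. Sir2KD2 gave 1.24, -0.05, 0.57 and -1.58, and Sir2KD1 gave 0.67, 0.61 and 2.86, all on the plus side. Sir2KD2 slide 4 and Sir2KD1 slide 3 were the extremes, on opposite sides. The fitted value in Sir2OE2 was -0.38 ± 0.44 (SE, n = 4), that in Sir2OE1 was 0.25 ± 0.52 (SE, n = 3) and that in Sir2KD2 was 0.04 ± 0.44 (SE, n = 4), with limma adjusted p of 0.842 or more. In Sir2KD1 it was 1.42 ± 0.52 (SE, n = 3; limma adjusted p = 0.196), with a 95% interval from 0.26 to 2.58, and without slide 3 it was 0.64. A fitted size near that of Ucp1 in Sir2OE1 therefore did not pass, since arrays of a line differed by more than it.

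The members differed in how closely their arrays repeated. Residual SD between arrays was 0.226 for Ucp1 (19.7th percentile of all probes), 0.341 for Slc25a14 (42.6th), 0.473 for Ucp3 (61.0th) and 0.999 for Slc25a27 (94.1th), where the median probe had 0.386. For Ucp3 it was 0.168 in overexpression and 0.648 in knockdown arrays, for Slc25a14 0.174 and 0.450, and for Slc25a27 0.324 and 1.38. Ucp1 ran the other way, at 0.269 and 0.173. All lines share 1 variance estimate per probe in the fit.

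**Figure D3:**
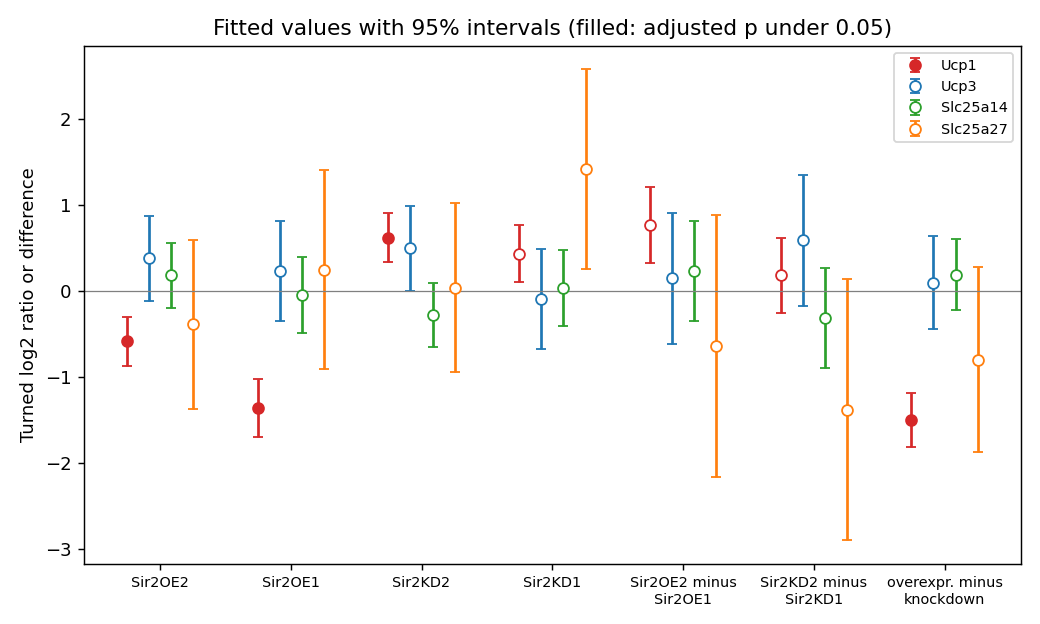
Fitted turned log2 ratios of the 4 lines and 3 differences between lines (horizontal axis) with 95% intervals for each member; filled points have a limma adjusted p under 0.05. Ucp1 has the only filled points, in Sir2OE2, Sir2OE1, Sir2KD2 and overexpression minus knockdown, and the widest intervals are those of Slc25a27.

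Lines of a kind share their control RNA, so their difference asks whether the modified lines themselves differ. Ucp1 in Sir2OE2 minus Sir2OE1 was 0.77 ± 0.20 (SE, limma adjusted p = 0.220), which did not pass. Its 95% interval ran from 0.33 to 1.21. The Ucp1 arrays of these lines did not overlap, and the share of all probes without such overlap was not counted. The other members had differences from -0.64 (Slc25a27) to 0.23 (Slc25a14) with adjusted p of 0.982 or more. Limma called 0 members here and 0.323% of all probes, and Ucp1 alone had an unadjusted p under 0.05 (7.48% of all probes did). For Sir2KD2 minus Sir2KD1 the differences were 0.18 ± 0.20 for Ucp1, 0.59 ± 0.34 for Ucp3, -0.31 ± 0.26 for Slc25a14 and -1.37 ± 0.69 for Slc25a27 (SE), again with 0 members called by limma against 0.689% of all probes, and 0 at an unadjusted p under 0.05 against 11.8%. The Slc25a27 interval ran from -2.89 to 0.14. Single arrays moved these differences: Slc25a27 was at -2.24 without Sir2KD1 slide 1, -0.59 without Sir2KD1 slide 3 and -0.62 without Sir2KD2 slide 4. Over the 7 such fits Ucp1 ran from 0.10 to 0.39, Ucp3 from 0.13 (without Sir2KD2 slide 3) to 1.02 (without Sir2KD1 slide 1) and Slc25a14 from -0.63 (without Sir2KD2 slide 4) to -0.09 (without Sir2KD2 slide 3).

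Overexpression minus knockdown, taken between the means of each pair of lines, was called for Ucp1 alone of the family; members were not tested against each other. Ucp1 averaged -0.97 under overexpression and 0.53 under knockdown, a difference of -1.50 ± 0.14 (SE; limma adjusted p = 0.000233) with a 95% interval from -1.81 to -1.19. That is a 2.82-fold difference, larger in size than 99.4% of probes, and 2.66% of all probes were called (1.12% on the minus side). It was the 1 member called of 4; the median member was at -0.35, against -0.01 for all probes. Ucp3 differed by 0.10 ± 0.24, Slc25a14 by 0.19 ± 0.19 and Slc25a27 by -0.80 ± 0.49 (SE), with limma adjusted p of 0.507 or more. The Slc25a27 interval, from -1.87 to 0.28, includes the Ucp1 value, and the Slc25a27 difference was -1.23 without Sir2KD1 slide 1 and -0.41 without Sir2KD1 slide 3. Without 1 array Ucp3 ran from -0.02 to 0.32 and Slc25a14 from 0.11 to 0.30. The Ucp1 difference was called without any 1 of the 14 arrays, at -1.56 to -1.39. It was not called read as line over control without any turn (-0.34, limma adjusted p = 0.632), with the knockdown ratios turned (-0.44, limma adjusted p = 0.116) or with the line as the replicate (adjusted p = 0.543, unadjusted p = 0.00481), a fit that called 0 probes by limma in all and had 1822 at an unadjusted p under 0.05.

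**Figure D4:**
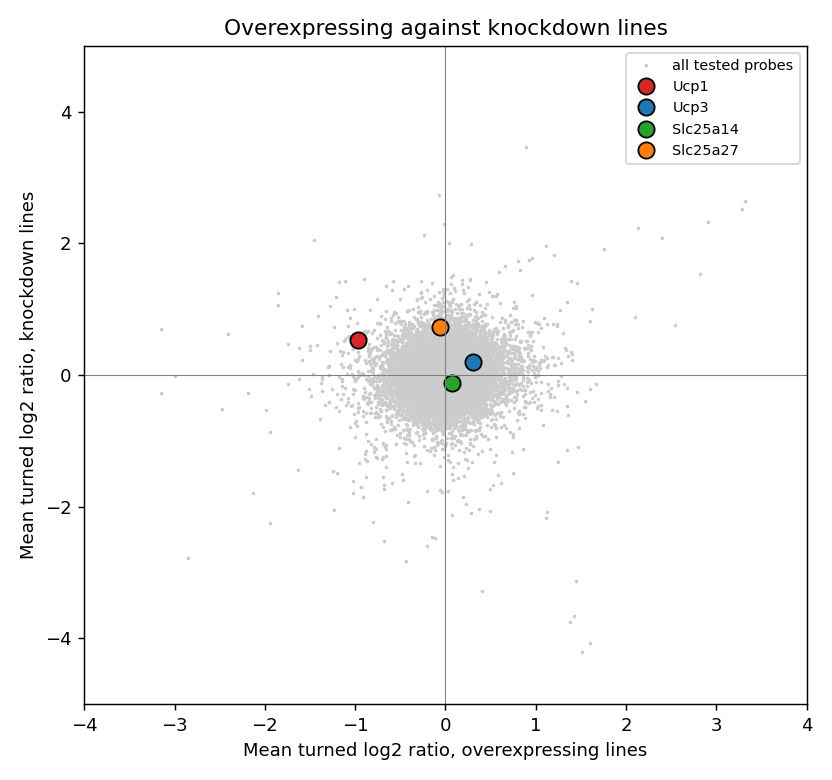
Mean turned log2 ratio of the overexpressing lines (horizontal axis) against that of the knockdown lines (vertical axis), a grey point for each tested probe and a coloured point for each member. Ucp1 lies at -0.97 and 0.53, in the quadrant of opposite sides and outside the dense part of the cloud, and the other members lie within or at the border of that part.

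Across the 14 arrays the members did not run together. Pearson r of turned values was 0.0715 for Ucp1 with Ucp3, -0.271 with Slc25a14 and 0.189 with Slc25a27. The other pairs had r from -0.415 (Ucp3 with Slc25a14) to -0.294 (Slc25a14 with Slc25a27). These are descriptions over arrays that share lines, controls and hybridisations.

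Among 16882 singly named probes, those closest to Ucp1 over the 14 arrays were Il4 (r = 0.960), a cytokine gene, Hivep3 (0.952), Sh3yl1 (0.952), Sqstm1 (0.949), which encodes the autophagy receptor p62, and the carbonic anhydrase Car15 (0.942). Their line values were not alike in size. Car15 was called in all 4 lines, at -1.54 in Sir2OE2, -2.17 in Sir2OE1, 1.16 in Sir2KD2 and 1.34 in Sir2KD1. Il4 was called in the knockdown lines, at 1.56 in Sir2KD2 and 1.14 in Sir2KD1, and not in Sir2OE2 (-0.14) or Sir2OE1 (-0.69). Sh3yl1 was called in Sir2OE2 (-0.81) and Sir2OE1 (-1.12), and not in Sir2KD2 (0.45) or Sir2KD1 (0.13). Hivep3 was called in Sir2KD2 (0.58) and Sir2KD1 (0.64), and Sqstm1 in no line, with values from -0.27 to 0.29. The probe closest to Ucp3 was that of Acot1, an acyl-CoA thioesterase (r = 0.895). For Slc25a14 it was the kinase gene Stk4 (r = 0.861) and for Slc25a27 the granzyme gene Gzmn (r = 0.881). None of the 5 closest probes of these 3 members was called in any line, so their likeness is in arrays rather than in called lines.

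The wider carrier family gave a frame for these values. Of 34 other Slc25 carriers, each read from 1 probe, limma called 0 in any line, against 6.39% of all probes called in at least 1 line. Over the 4 lines, 16 of 136 carrier values (11.8%) had an unadjusted p under 0.05, against 13.2% over all probes. Medians were -0.02 in Sir2OE2, 0.05 in Sir2OE1, 0.05 in Sir2KD2 and 0.03 in Sir2KD1, where those of all probes were 0.00, 0.00, 0.00 and 0.02. Carrier values ran from -0.46 to 0.51 in Sir2OE2 and from -0.47 to 0.55 in Sir2OE1, so Ucp1 lay below all of them in both. In Sir2KD2 they ran from -0.75 to 0.64, which includes Ucp1, and in Sir2KD1 from -0.60 to 0.87, which leaves only Slc25a27 of the family outside.

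**Figure D5:**
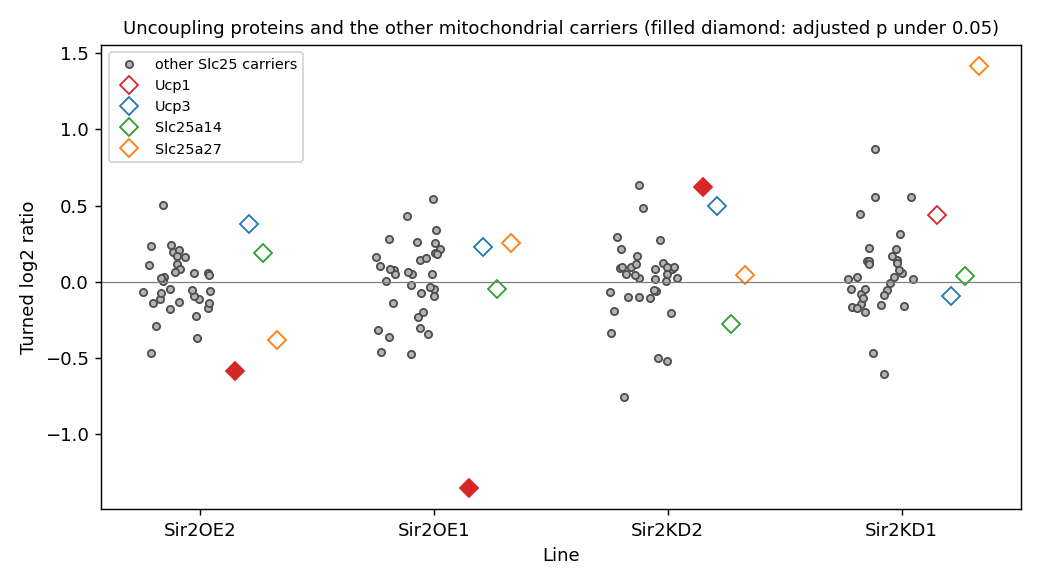
Turned log2 ratio (vertical axis) by line of the 34 other Slc25 carriers (grey circles) and of the 4 members (diamonds, filled where limma adjusted p is under 0.05). Ucp1 lies below every grey circle in Sir2OE2 and Sir2OE1, and no other carrier was called.

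Some carriers were singled out for their role after their values had been seen. The adenine nucleotide translocators Slc25a4 and Slc25a5, which exchange ADP for ATP and also conduct protons, stayed between -0.14 and 0.22 in all lines. The phosphate carrier Slc25a3 stayed between -0.05 and 0.18. Slc25a30, the closest relative of Slc25a14, was at -0.17 in Sir2OE2, 0.05 in Sir2OE1, 0.48 in Sir2KD2 and 0.14 in Sir2KD1. The carnitine carrier Slc25a20, which brings in fatty acids for oxidation, was at 0.51 in Sir2OE2 and 0.43 in Sir2OE1 and was not called.

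Genes of the thermogenic programme, which switches on Ucp1 in brown fat, had 0 of 29 probes (28 genes) called by limma in any line, with 20 of 116 values (17.2%) at an unadjusted p under 0.05. Over all probes these shares were 6.39% and 13.2%. Their medians were -0.16 in Sir2OE2, -0.14 in Sir2OE1, 0.03 in Sir2KD2 and -0.18 in Sir2KD1. Named for their role after their values were seen, the coactivator Ppargc1a was at -0.56 in Sir2OE2, -0.38 in Sir2OE1, 0.16 in Sir2KD2 and 0.04 in Sir2KD1, with limma adjusted p of 0.301 or more. Prdm16, a determinant of brown fat, was on the minus side in all 4 lines at -0.24, -0.15, -0.54 and -0.60 (Sir2OE2, Sir2OE1, Sir2KD2, Sir2KD1) and was not called. Cidea, a lipid droplet protein of brown fat, was at 0.33, -0.18, 0.06 and -0.48 in the same order.

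Of 19 ATP synthase probes (18 genes), the enzyme whose proton supply uncoupling diverts, limma called 0 in any line, against 6.39% of all probes. The list includes Atpif1, the inhibitor of the enzyme, and the pseudogene Atp5k-ps1. At an unadjusted p under 0.05 there were 11 of 76 values (14.5%), against 13.2% over all probes. Their medians were -0.21 in Sir2OE2, -0.17 in Sir2OE1, 0.06 in Sir2KD2 and 0.01 in Sir2KD1. In the overexpression arrays 10 of the 19 repeated the single ratio pattern named above, and in the knockdown arrays 3 did, which bears on these medians.

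Fatty acids activate and fuel uncoupling. The list of fatty acid supply held genes of their uptake, oxidation, synthesis and regulation, among them Acaca and Pdk4. Of its 27 probes (24 genes) 2 were called (7.41%), a share near the 6.39% of all probes. At an unadjusted p under 0.05 there were 14 of 108 values (13%), against 13.2% over all probes. Cpt2, the inner-membrane carnitine palmitoyltransferase, was called in Sir2OE2 at -0.74 ± 0.13 (SE, n = 4; limma adjusted p = 0.00897) and was at -0.34 in Sir2OE1, 0.24 in Sir2KD2 and -0.04 in Sir2KD1. Acaca, which makes malonyl-CoA, had 1 of its 3 probes called, at -0.08 in Sir2KD2, not called, and at 1.52 ± 0.25 (SE, n = 3; limma adjusted p = 0.00741) in Sir2KD1. The other Acaca probes disagreed with it, at -0.55 and 0.17 in Sir2KD1. Medians of the list were -0.06 in Sir2OE2, 0.12 in Sir2OE1, 0.06 in Sir2KD2 and -0.03 in Sir2KD1.

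Markers of the tissues where the members are best known were set beside them. Adipocyte markers had 0 of 8 probes called by limma in any line, and 1 of 32 values (3.12%) at an unadjusted p under 0.05. Their turned log2 ratios summed to between -1.17 (Sir2KD2) and 0.14 (Sir2OE2). Skeletal muscle markers had 0 of 10 called by limma, 2 of 40 values (5.00%) at an unadjusted p under 0.05, and sums from -0.86 to 0.77. Neuronal markers had 3 of 11 called in at least 1 line (27.3%, against 6.39% of all probes) and 18 of 44 values (40.9%) at an unadjusted p under 0.05, against 13.2% over all probes. These were the ubiquitin hydrolase Uchl1 (3.18 in Sir2OE2, 2.45 in Sir2OE1, 1.81 in Sir2KD2 and 1.26 in Sir2KD1), the tubulin-binding protein Stmn2 (2.32, 0.47, 1.10 and 1.77) and the growth cone protein Gap43 (-0.37, 0.58, -0.49 and -1.37). Beta-cell markers had 5 of 11 called (45.5%) and 22 of 44 values (50%) at an unadjusted p under 0.05, among the called the glucose transporter Slc2a2 on the minus side in all 4 lines (-1.50, -0.90, -0.89 and -2.08), the convertase Pcsk1 on the plus side in 3, and Nkx2-2 in Sir2KD1 at -0.92. In the overexpression arrays 3 of the 11 beta-cell probes repeated the single ratio pattern named above, and in the knockdown arrays 2 did. Iapp and Chga thus had the same value in Sir2OE2 (-0.41), which bears on the 50%. The part of all these tissue markers in the members' values was not tested.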

How the data were processed

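The authors deposited, for 14 two-colour arrays, log2 channel ratios. The sources used here give neither array software nor background correction, normalization or ratio direction, and without intensities signal over background is unknown; the number of arrays limits the precision. Deposited values of each probe summed to 0 over 6 of the 7 arrays of a kind (largest deviation 5.6e-08), 3 with the line in each channel, so they had been centred. Undoing this gave the smallest whole-number percents for 100% of complete probes (relative tolerance 1e-05). Array medians ran from -0.0347 to 0.0165.

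Of 23232 probes, 16885 had 1 gene symbol in an old platform annotation, 143 had several and 6204 were not listed; 16205 symbols were updated with the GRCm38.p6 gene table. The 23230 probes measured on 2 or more arrays in each line entered a limma model (limma 3.58.1, R 4.3.3) with a coefficient per line and a channel term per kind, over all 14 arrays (8 residual degrees of freedom). Adjustment was by Benjamini-Hochberg over all probes, and 95% intervals are limma's. The code was tested on simulated data. From each list, at most 3 probes called in a line, those of largest size, are named, with the 5 probes of highest r per member; names outside this rule were chosen after their values were seen. Members, lists and tests were chosen with earlier results of these data known. Alternatives covered the turn, channel terms, slide number, scaling, filters, each array left out, weights and variance prior.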

Additional observations from a re-analysis of the deposited data

Results flagged for a closer look

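Ucp1 differed between the kinds of line in the test of the difference itself, at -1.50 on the turned log2 scale for overexpression minus knockdown. It was not called with the knockdown ratios turned (-0.44, limma adjusted p = 0.116), with no turn (-0.34, adjusted p = 0.632) or with the line as the replicate (adjusted p = 0.543).

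Slc25a27 lay on the minus side on all 4 Sir2OE2 arrays and on the plus side on all 3 Sir2KD1 arrays, a difference of fitted values of -1.80. The Sir2KD1 value of 1.42 was 0.64 without slide 3, and Slc25a27 lay on both sides of 0 in Sir2OE1 and in Sir2KD2. With the centring undone, its Sir2OE2 channel ratios were 0.32 and 0.35 in channel 2 and 0.45 and 0.72 in channel 1. All were below 1, so the shared minus side of the turned Sir2OE2 values depends on the centring. Sirt1 lay on the minus side on all 4 Sir2OE2 arrays and on the plus side on all 4 Sir2KD2 arrays, a difference of -0.46. Neither of these differences was tested, and the share of all probes with such a separation of 1 line from another was not counted. No array of Sir2OE2 or Sir2KD2, the lines with 4 arrays, stood apart from the others for a member by Dixon's criterion. This criterion flags about 1 group in 20 by chance. The highest ratio of a member was 0.772, for Ucp1 in Sir2OE2, below the critical value, and that of Sirt1 was 0.789, in Sir2KD2. The lines with 3 arrays were not checked this way. Single arrays lay far from the others there for Slc25a27 in Sir2KD1 (0.67, 0.61 and 2.86) and Ucp3 in Sir2OE1 (0.13, 0.47 and 0.12).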

How the results depend on the processing

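Counts of members called were recomputed 127 times in all, and 108 did not move. The Sir2OE2 count, 1 as reported, was 0 with the centring undone and values taken as line over control without a turn, with the slide number as a replicate block (Ucp1 -0.58, limma adjusted p = 0.105), and, in alternatives chosen after seeing the data, with the centring undone and no channel term or with arrays of that kind alone. The Sir2KD2 count, also 1, was 0 with the slide block (0.62, limma adjusted p = 0.112), with scale normalization between arrays (Ucp1 adjusted p = 0.0546), and in the same alternatives chosen after seeing the data; as line over control it was 1, but Ucp3 at -0.97, while Ucp1 reversed to -0.25. The Sir2OE1 count was 0 as line over control. Overexpression minus knockdown went to 0 with the knockdown ratios turned or with the line as the replicate. Leaving out 1 of the line's own arrays gave 0 members called in Sir2OE2 and in Sir2KD2 each time. The causes were not tested. Slide numbers pair nothing by the labels, so the block has no basis in the design. Same-numbered arrays had residual correlations from -0.389 to 0.237 within a kind and from -0.0273 to 0.0121 between kinds. The fit and the centring bind the residuals within a kind, so the first range cannot decide whether slides pair. Over all probes, called numbers were 653 in Sir2OE2 (317 to 2324 over alternatives), 247 in Sir2OE1 (47 to 2558), 312 in Sir2KD2 (65 to 1361) and 833 in Sir2KD1 (180 to 1867). Of 508 recomputed member values 461 kept side and call, 20 kept the side but lost the call, 24 that were not called changed side, 2 were reversed as given above for Sir2KD2, and Ucp3 in overexpression minus knockdown was called as line over control (1.10, limma adjusted p = 0.0218) in place of Ucp1.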
